A study of Canis lupus familiaris with 186 samples.

Results

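The Wnt ligands, receptors and inhibitors were measured by mRNA sequencing in primary appendicular osteosarcoma, the malignant bone-forming tumor of the limb, in 186 pet dogs. Members were chosen by gene symbol: the Wnt ligands (WNT), the Frizzled receptors (FZD) with the coreceptors LRP5 and LRP6, the R-spondins (RSPO) with LGR4, LGR5 and LGR6, the secreted or membrane inhibitors (SFRP, DKK, SOST, WIF1, APCDD1, APCDD1L and NOTUM), and AXIN1 and AXIN2. That rule reads symbols and no measured value, though it was set with earlier results of these data known. It found 53 of the 37952 genes in the table. These were 19 ligands, 12 receptors or coreceptors, 7 R-spondins or LGR receptors, 13 inhibitors and 2 AXIN genes. Each library held the mRNA of 1 tumor biopsy of 1 dog, with 93 dogs from the trial COTC021 and 93 from COTC022. The dogs differed in breed, age and sex and had received no treatment when the biopsy was taken. The limb was then amputated and carboplatin was given with or without rapamycin, so no library holds the effect of a drug.

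Wnt proteins bind a Frizzled receptor together with LRP5 or LRP6, which stops the destruction of beta-catenin and lets it switch on genes with TCF and LEF factors. AXIN2 is one of those target genes and also a brake of the pathway, since it belongs to the complex that destroys beta-catenin, and its mRNA is often read as the output of the pathway. R-spondins bind LGR receptors and keep Frizzled receptors at the cell surface. The SFRP proteins and WIF1 hold the ligands, DKK1 and sclerostin (SOST) block the coreceptors, and NOTUM strips the lipid that a Wnt protein needs. Members were grouped by symbol, so DKK2 and DKK3 count as inhibitors though their action was not tested here. In bone the pathway drives osteoblasts, the bone-forming cells, and sclerostin is the inhibitor made by osteocytes, the cells buried in the matrix.

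Libraries held 6587634 to 27420867 counts, with a median of 10797171. The column names of 50 libraries carry a doubled low bar (__), called double-bar here, 18 of COTC021 and 32 of COTC022, and these libraries were deeper (median total 19440456) than the 136 single-bar libraries (median 9851682). What the bar stands for is not given in the sources used here, so values within both kinds are reported. The library of COTC022 dog 1709 stood apart: its median correlation of log2 CPM with the other libraries was 0.692, against a median of 0.847 over all libraries and 0.772 for the next lowest, COTC021 dog 0203. That library also had the lowest osteoblast and stroma scores (−4.39 and −4.47 SD) and the highest immune score (3.60 SD), and results are given with and without it. Of the 53 members, 37 passed a filter on low counts with 13422 of the 37952 genes: 8 ligands, 11 receptors or coreceptors, 4 R-spondins or LGR receptors, 12 inhibitors and both AXIN genes. Levels are CPM, the counts of a gene per 1000000 counts of its library, not divided by gene length, so they are compared between tumors and not between genes.

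The tumors themselves were described by 4 scores, each the mean of standardized log2 CPM over a marker list: osteoblast (11 genes, among them RUNX2, SP7, IBSP and BGLAP), cartilage (8 genes, among them ACAN, COL2A1 and SOX9), stroma of fibroblasts and vessel walls (10 genes, among them DCN, LUM and PDGFRB) and the immune signature GS-1 of the study (27 genes, among them CD53 and C1QB). The labelled tissue carried its markers, and the 11 osteoblast genes passed the filter. Their summed level had a median of 24237 CPM, ranging from 463 CPM in COTC022 dog 1709 to 115070 CPM. The osteoblast score weighs each gene alike and had Spearman rho = 0.40 with that sum, so it is not the amount of osteoblast mRNA. In pieces of whole tumor, fewer cells of a type and less RNA per cell cannot be told apart. A slope below is the log2 change of a member per 1 SD of the score or of AXIN2, from limma-voom with the trial as a term, and a member was called at an adjusted p (Benjamini-Hochberg over all genes tested) under 0.05.

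Among the ligands, WNT5B, which acts mostly outside beta-catenin, was the ligand with at least 10 counts in every library. It was at 2.28, 17.2 and 279 CPM (lowest, median and highest) in COTC021 and at 0.696, 18.7 and 139 CPM in COTC022. The trials overlapped, with the lowest tumor in COTC022 and the highest in COTC021. WNT2B had at least 10 counts in 176 libraries, WNT9A in 177, WNT5A in 162, WNT10B in 154, WNT3 in 139, WNT4 in 124 and WNT2 in 111. The other 11 ligands did not pass the filter. Of these, WNT3A, a classic activator of beta-catenin, had 0 counts in 177 libraries and reached 10 counts in 0, and WNT6, WNT8A and WNT8B reached 10 counts in 2 libraries each. WNT1 had at least 10 counts in 37 libraries, WNT7B in 82 and WNT16 in 87. WNT7B and WNT16 were low in most tumors rather than undetected, with a median of 7 and 8 counts and with 0 counts in 22 and 18 libraries. At these depths 3 counts, set here as the limit of detection and not measured, correspond to between 0.109 and 0.455 CPM.

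**Figure D1:**
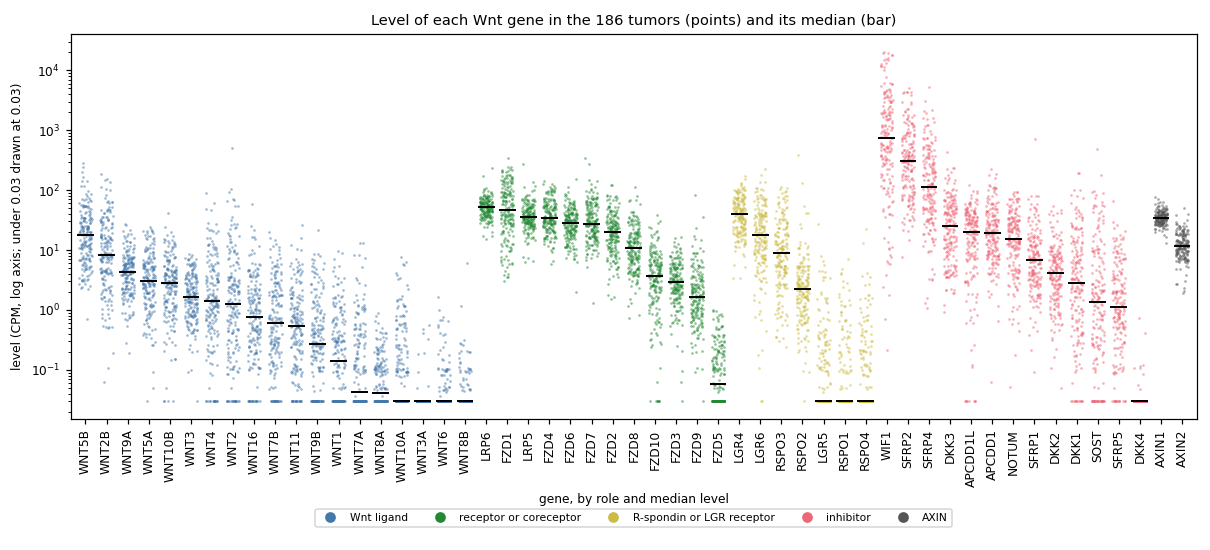
Level of each of the 53 Wnt genes in CPM (vertical log axis; values under 0.03 CPM are drawn at 0.03), with 1 point per tumor and a black bar at the median over 186 tumors, grouped and coloured by role. LRP6 and AXIN1 form the narrowest bands among genes with a median above 10 CPM, while WIF1 spreads from 0.216 to 20193 CPM and several ligands, LGR5, RSPO1, RSPO4 and DKK4 lie at the bottom in most tumors.

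The receptors were present in nearly all tumors. FZD1, FZD2, FZD4, FZD6, FZD7, LRP5 and LRP6 had at least 10 counts in every library, FZD8 in 185, FZD3 in 171, FZD10 in 160 and FZD9 in 139, and only FZD5, with 2 libraries at that count, did not pass the filter. LRP6, the coreceptor, was at 24.5, 51.3 and 236 CPM in COTC021 and at 15.3, 51.4 and 170 CPM in COTC022. FZD1 was at 3.10, 47.2 and 342 CPM in COTC021 and at 3.52, 42.4 and 246 CPM in COTC022. LGR4, a receptor of R-spondins, was found in every library at 3.47 to 174 CPM, and its relative LGR6 in 179, at 0 to 222 CPM. LGR5, known as a marker of epithelial stem cells, had 0 counts in 102 libraries and at least 10 in 25. RSPO3 and RSPO2 had at least 10 counts in 169 and 148 libraries, RSPO1 and RSPO4 in 21 and 18.

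The inhibitors spanned wide ranges. WIF1 (Wnt inhibitory factor 1; chromosome 10, 8017421 to 8084263, build GSD_1.0) was at 0.216, 889 and 19447 CPM in COTC021 and at 0.696, 605 and 20193 CPM in COTC022. Its highest library, COTC022 dog 1014, gave 406353 counts to WIF1, which was 2.02% of all its counts. The SD of its log2 CPM was 2.98, and 39 of the 13422 genes varied more. SOST (chromosome 9, 19415616 to 19420514) was at 0 counts in 28 libraries and reached 486 CPM in COTC021 dog 1905, with the next tumor at 179 CPM. SFRP2, which binds Wnt proteins, was found in every library, at 7.64 to 4980 CPM, and SFRP4 at 1.06 to 5350 CPM. Over the 37 members the median SD of log2 CPM was 1.54, against 0.616 over all genes tested, and 35 of the 37 varied more than the median gene. The exceptions were AXIN1 and LRP6, with an SD of 0.336 and 0.520. This comparison was not matched for level, and some members had few counts, such as SFRP5, WNT2 and SOST (median 15, 16 and 16.5 counts).

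Single tumors stood far above the rest for several members. SFRP1 was at 712 CPM in COTC021 dog 1106 and at most 81.1 CPM elsewhere, WNT2 at 501 CPM in COTC021 dog 2321 and at most 106 CPM elsewhere, and RSPO2 at 379 CPM in COTC021 dog 0630 and at most 133 CPM elsewhere. Some tumors were highest for more than 1 member. COTC021 dog 1106 also had the highest DKK3, LGR5 and WNT7B, COTC021 dog 2321 the highest WNT9A and WNT11, COTC021 dog 0630 the highest FZD1, LRP6 and WNT3, and COTC022 dog 1107 the highest WNT2B, WNT4 and WNT16.

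The trials were compared first, since the biopsies were taken before treatment in both. No member differed between COTC022 and COTC021 with limma-voom (0 of 37, with 0.0149% of all genes called), and 1 had an unadjusted p under 0.05, WNT10B. SOST differed most, with a log2 difference of 0.69 (COTC022 minus COTC021; SE 0.46, adjusted p = 0.66, limma-voom). The slopes below were likewise tested for a difference between the trials, and 0 members were called for AXIN2, the osteoblast score and GS-1 with limma-voom, with 0.00%, 0.00746% and 0.00% of all genes called. At an unadjusted p under 0.05 were 4 of 36, 2 of 37 and 1 of 37 members, against 8.44%, 5.56% and 2.93% of all genes. The kind of library name called 0 of 37 members, with 4.27% of all genes called and 2 members at an unadjusted p under 0.05.

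The other tools called RSPO2 and SFRP1 lower in COTC022, and each call rested on 1 library. RSPO2, an R-spondin, was at 0, 2.52 and 379 CPM in COTC021 and at 0.129, 1.99 and 55.2 CPM in COTC022. edgeR's quasi-likelihood test called 1 of 37 members, RSPO2 (log2 difference −1.32, adjusted p = 0.0063), with 0.961% of all genes called. DESeq2 called 2 of 37, RSPO2 and SFRP1, with 1.53% called. Without COTC021 dog 0630 the log2 difference of RSPO2 in edgeR was −0.60 (adjusted p = 0.27), and without COTC021 dog 1106 that of SFRP1 in DESeq2 was −0.20 (adjusted p = 0.74).

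Along the osteoblast score the members moved in opposite directions. With limma-voom 17 of 37 members were higher in tumors with a higher osteoblast score, with 20.2% of all genes called higher. Another 10 of 37 were lower, with 21.6% of all genes called lower. The median size of a member's slope was 0.37, against 0.0906 over all genes tested. Larger slopes were not particular to this score. The sizes were 0.25 against 0.104 on GS-1, 0.24 against 0.0783 on cartilage, 0.22 against 0.0892 on stroma and 0.15 against 0.0628 on AXIN2. The members also varied more between tumors, with a median SD of 1.54 against 0.616 over all genes, not matched for level. The members that rose comprised 6 inhibitors, 4 ligands, 4 receptors or coreceptors, and RSPO3, LGR4 and LGR6. Those that fell were WNT2, WNT9A, FZD1, FZD2, FZD6, RSPO2, DKK2, DKK3, SFRP2 and SFRP5. Without COTC022 dog 1709 the counts were 15 and 12, and 25 of the 27 calls were kept.

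SOST showed the steepest slope. It was at 0, 1.14 and 486 CPM in COTC021 and at 0, 1.63 and 95.6 CPM in COTC022, with no separation of the trials. Its slope was 2.42 on the log2 scale per SD (SE 0.23, adjusted p = 8.7e-19, limma-voom), and 2.22 and 2.58 within double-bar and single-bar libraries. Over the 186 tumors its log2 CPM correlated with the score with Pearson r = 0.63 and Spearman rho = 0.71 (permutation p = 1e-05 for each, the smallest 100000 resamples allow; adjusted p = 5.4e-05 and 5.3e-05 over all correlations of members with the 5 measures). Leaving out the 2 tumors farthest from the median score gave r = 0.64, and rho was 0.73 in COTC021 and 0.67 in COTC022. The scatter plots show SOST at its floor across much of the low end of the score. The osteocyte markers DMP1, MEPE and FGF23 had a summed level of 0.470 to 1474 CPM, with a median of 72.2 CPM, and 1 of the 3 passed the filter. Their part in the SOST values was not tested.

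WIF1 followed with a slope of 1.85 (SE 0.19, adjusted p = 2.2e-16, limma-voom), which was 1.82 and 1.89 within double-bar and single-bar libraries. Its correlation with the score was r = 0.62 and rho = 0.50 (permutation p = 1e-05 for each). APCDD1L, a relative of the membrane inhibitor APCDD1, was at 0, 18.4 and 97.8 CPM in COTC021 and at 0, 24.8 and 121 CPM in COTC022, and its slope was 1.50 (SE 0.14). LGR6 had a slope of 1.17 (SE 0.15), DKK1 of 1.06 (SE 0.24) and NOTUM of 0.92 (SE 0.14). Thus 6 inhibitors rose with the score (SOST, WIF1, APCDD1L, DKK1, NOTUM and APCDD1) and 4 fell. Among ligands WNT4 (0.89, SE 0.19), WNT10B (0.81, SE 0.14), WNT3 (0.36) and WNT5A (0.35) rose, though WNT5A had a slope of 0.89 within double-bar and of 0.04 within single-bar libraries, and of −0.03 with edgeR and with DESeq2. WNT4 had a slope of 0.22 with edgeR and with DESeq2 and was called by neither. Among receptors FZD7, FZD8, FZD10 and LRP5 rose by 0.14 to 0.40, but FZD10 and LRP5 lost the call with both edgeR and DESeq2, and FZD10 also without COTC022 dog 1709. DKK1 lost it with DESeq2.

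WNT2, a ligand that acts through beta-catenin, fell most. It was at 0, 1.47 and 501 CPM in COTC021 and at 0, 1.15 and 106 CPM in COTC022, and its slope was −1.06 (SE 0.14, adjusted p = 1.6e-11, limma-voom). The slope was −1.61 without COTC022 dog 1709, a tumor low in both the score and WNT2. It was −1.60 within COTC021 and −0.48 within COTC022, which holds that dog, and −0.51 and −1.56 within double-bar and single-bar libraries. The difference between the trials was 1.11 (COTC022 minus COTC021; SE 0.26, adjusted p = 0.086, limma-voom), and it was 0.0016 (SE 0.27) without that dog. DKK3 had a slope of −0.73 (SE 0.11) and was at 1.19, 30.3 and 427 CPM in COTC021 and at 0.928, 21.3 and 234 CPM in COTC022. SFRP5 and FZD1 followed with −0.57 (SE 0.15) and −0.47 (SE 0.11). FZD1 fell in single-bar libraries (−0.66) and had a slope of −0.05 within double-bar libraries. WNT9A had a slope of −0.23, or −0.52 without COTC022 dog 1709.

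**Figure D2:**
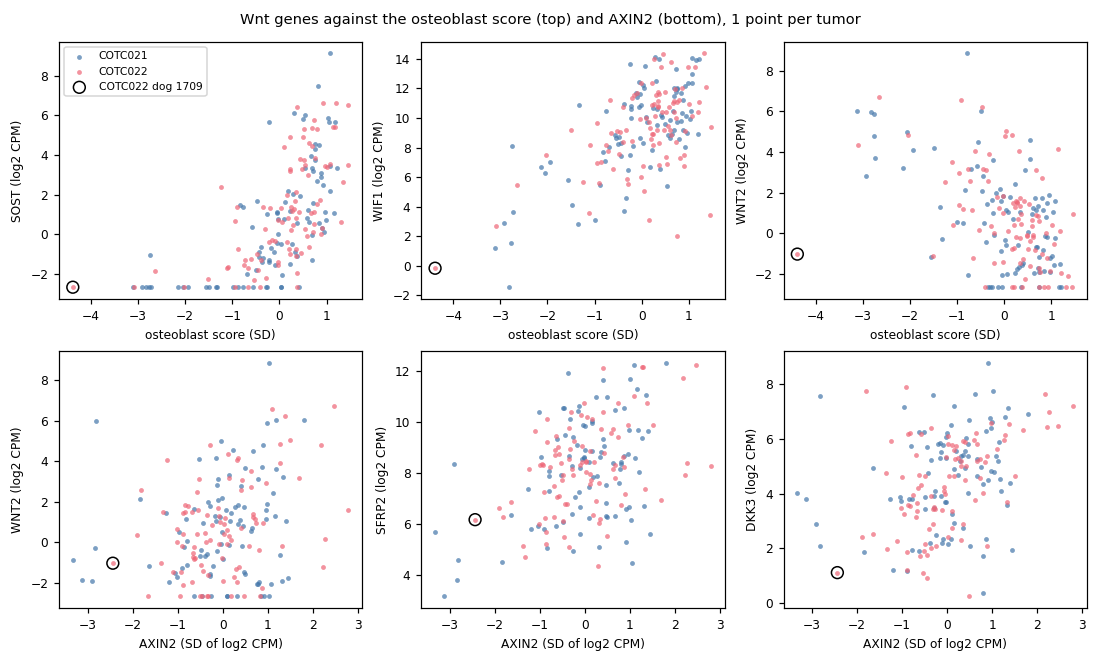
Scatter plots of log2 CPM (vertical axes) of SOST, WIF1 and WNT2 against the osteoblast score and of WNT2, SFRP2 and DKK3 against AXIN2 (horizontal axes, in SD), 1 point per tumor coloured by trial, with COTC022 dog 1709 circled. SOST and WIF1 rise to the right with slopes of 2.42 and 1.85 and WNT2 falls with −1.06, while the clouds against AXIN2 are wider (slopes 0.87, 0.81 and 0.74).

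AXIN2, whose mRNA is often read as the output of the pathway, went with part of the members. Whether it stood for that output in these tumors was not tested. AXIN2 (chromosome 9, 12336357 to 12367417) had at least 18 counts in every library, and was at 1.88, 12.0 and 27.4 CPM in COTC021 and at 3.04, 11.4 and 50.8 CPM in COTC022. Of the 36 other members tested 12 were higher in tumors with more AXIN2, with 9.24% of all genes called higher, and 0 were lower (limma-voom), with 7.20% of all genes called lower. edgeR called 0 lower and DESeq2 1, DKK1, and the 3 further members at an unadjusted p under 0.05 in limma-voom (WNT4, RSPO2 and FZD4) had slopes above 0. For edgeR and DESeq2 the share of all genes called is not given here. The members called with limma-voom comprised 6 inhibitors (SFRP1, SFRP2, SFRP4, SFRP5, DKK2 and DKK3) and 4 receptors or coreceptors (FZD1, FZD2, FZD10 and LRP6). The ligands WNT2 and WNT9A were called as well. Of the called members, WNT2, WNT9A, FZD1, FZD2, DKK2, DKK3, SFRP2 and SFRP5 were also called lower on the osteoblast score, and FZD10 higher. Over the whole list 27 of 37 members were called on that score, so this overlap is not particular to the members called with AXIN2. On the stroma score all the members called with AXIN2 but FZD10 were called higher. AXIN2 itself went with that score (r = 0.45). The share called higher on stroma among all genes called with AXIN2 was not computed. AXIN1, the constitutive relative of AXIN2, had a slope of 0.00067 (SE 0.025).

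WNT2 had the steepest slope on AXIN2, 0.87 (SE 0.21, adjusted p = 0.0014, limma-voom), and its correlation was r = 0.28 and rho = 0.26 (permutation p = 0.00012 and 0.00020, adjusted p = 0.00046 and 0.00072). SFRP2 had a slope of 0.81 (SE 0.13, adjusted p = 6.2e-07) with r = 0.42 and rho = 0.33 (permutation p = 1e-05 for each, adjusted p = 5.4e-05 and 5.3e-05). DKK3 had a slope of 0.74 (SE 0.13), of 1.22 within double-bar and of 0.58 within single-bar libraries, and SFRP5 one of 0.67 (SE 0.17). The smallest slopes among the called members were those of LRP6 (0.16, SE 0.037), SFRP1 (0.35), DKK2 (0.41) and WNT9A (0.47, SE 0.083). Leaving out COTC022 dog 1709 kept the 12 calls and added FZD4. SOST, WIF1, APCDD1L and LGR6 had slopes on AXIN2 of −0.18 to −0.096 in all tumors and of −0.30 to −0.20 without that dog. They were called in neither fit. DKK2 lost the call with both edgeR and DESeq2, and SFRP4 with edgeR. SFRP1 (adjusted p = 0.043, limma-voom) lost it without the 2 tumors farthest in AXIN2, within each trial and within each kind of library name.

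AXIN2 itself rose with the stroma score (r = 0.45 and rho = 0.36, permutation p = 1e-05 for each, adjusted p = 5.0e-05), and r was 0.54 and 0.43 within double-bar and single-bar libraries. The 10 stroma markers all passed the filter and their summed level ranged from 273 to 15840 CPM, with a median of 4881 CPM. With the 4 scores added to the fit, 3 of 36 members were called higher with AXIN2, with 0.961% of all genes called: FZD10 (0.66, SE 0.15, adjusted p = 0.0097), WNT10B (0.43, SE 0.12, adjusted p = 0.034) and FZD2 (0.36, SE 0.085, adjusted p = 0.011), all with limma-voom. In that fit the slope of WNT2 was 0.51 (adjusted p = 0.20) and that of SFRP4 was −0.0023. Within the 50 double-bar libraries DKK3 and FZD1 were called, and FZD10 had a slope of −0.03 there, against 0.81 in the 136 others.

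**Figure D3:**
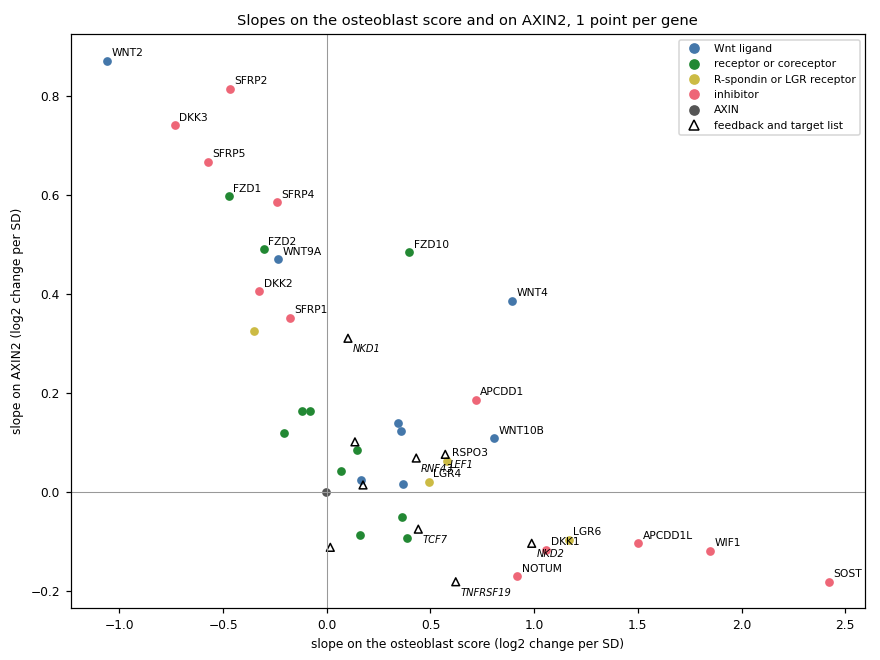
Slope of each Wnt gene on the osteoblast score (horizontal axis) and on AXIN2 (vertical axis), both in log2 change per SD, with 1 point per gene coloured by role and open triangles for the feedback and target list. WNT2, SFRP2, DKK3, SFRP5 and FZD1 lie at the upper left, rising with AXIN2 and falling with the osteoblast score. SOST, WIF1, APCDD1L and LGR6 lie at the lower right, with uncalled slopes on AXIN2 of −0.18 to −0.096. Both slopes come from the same tumors.

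On the stroma score 17 of 37 members were higher (20.9% of all genes called higher) and 0 were lower (limma-voom, 20.0% of all genes called lower). edgeR called 2 lower and DESeq2 4, and the 2 further members at an unadjusted p under 0.05 in limma-voom, DKK1 and LGR4, had slopes above 0. SFRP4 was at 1.06, 105 and 5350 CPM in COTC021 and at 1.58, 116 and 1929 CPM in COTC022, and had the steepest slope, 1.11 (SE 0.16, adjusted p = 2.9e-09, limma-voom), with r = 0.51 and rho = 0.44 (permutation p = 1e-05 for each). SFRP2 followed with 0.92 (SE 0.12), DKK3 with 0.74 (SE 0.14) and SFRP5 with 0.71 (SE 0.18). FZD4, a receptor known from blood vessels, had a slope of 0.55 (SE 0.055, adjusted p = 3.9e-16, limma-voom), and AXIN2 one of 0.34 (SE 0.053). LRP6, LRP5, FZD2 and FZD8 had the smallest called slopes, 0.10 to 0.29. WNT2, RSPO2 and LRP5 lost the call with both edgeR and DESeq2, and WNT4 and SFRP1 without COTC022 dog 1709. Calls for members lower with stroma depended on the fit, and the shares of all genes called in these other fits are not given. Without COTC022 dog 1709 the counts were 15 and 2, the latter FZD3 and WNT10B, and with the other scores in the fit SOST (−0.68), WNT10B (−0.45), APCDD1L (−0.35), NOTUM (−0.29) and FZD3 (−0.27) were called lower.

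On the cartilage score 15 of 37 members were higher (16.3% of all genes called higher) and 1 was lower, WNT2B (16.4% of all genes called lower), with limma-voom. edgeR called 5 members lower and DESeq2 6, and 3 were lower with the other scores in the limma-voom fit. The shares of all genes called in these other fits are not given. FZD9 was at 0, 1.62 and 35.8 CPM in COTC021 and at 0.103, 1.70 and 83.3 CPM in COTC022. Its slope was 1.01 (SE 0.076, adjusted p = 5.9e-25, limma-voom), 1.02 and 1.06 within double-bar and single-bar libraries, and its correlation was r = 0.62 and rho = 0.57 (permutation p = 1e-05 for each). FZD1 (0.77, SE 0.098), SFRP5 (0.69, SE 0.15) and DKK3 (0.61, SE 0.12) came next. The smallest called slopes were those of LRP6 (0.10), LRP5 (0.15) and RSPO2 (0.31). WNT2B fell by 0.46 (SE 0.16, adjusted p = 0.016, limma-voom) on the log2 scale, or by 0.63 without COTC022 dog 1709. WNT2 had a slope of 0.45 with limma-voom and of −0.21 with edgeR, so its direction was not settled. SFRP5, LRP5 and WNT5A lost their call with both edgeR and DESeq2.

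**Figure D4:**
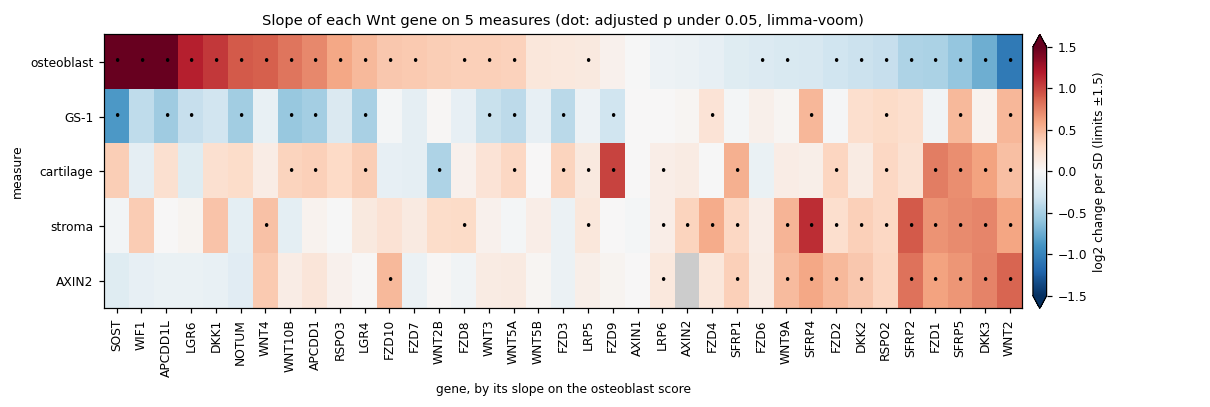
Heat map of the slope of each Wnt gene (columns, ordered by the slope on the osteoblast score) on the 4 scores and on AXIN2 (rows), coloured from −1.5 (blue) to 1.5 (red) in log2 change per SD, with a dot where limma-voom called it and grey where it was not tested. The left columns, SOST to LGR4, are red on the osteoblast score and mostly blue on GS-1, and the right columns, SFRP4 to WNT2, are red on stroma and AXIN2.

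GS-1 is the immune signature on which the study clustered its tumors. Those clusters and the survival times were not analysed here, and GS-1 enters as a score. With limma-voom 5 of 37 members were higher with GS-1 (22.6% of all genes called higher) and 11 of 37 lower (26.8% of all genes called lower). SOST fell most, by 0.86 per SD (SE 0.23, adjusted p = 0.0010), followed by WNT10B by 0.57 (SE 0.12), APCDD1L by 0.54 (SE 0.17) and NOTUM by 0.52 (SE 0.13). LGR4 fell by 0.48 with the smallest adjusted p of the members (5.6e-10, limma-voom). It was at 5.16, 39.9 and 125 CPM in COTC021 and at 3.47, 38.0 and 174 CPM in COTC022. The members that rose were SFRP4 (0.50, SE 0.16), WNT2 (0.49, SE 0.19), SFRP5 (0.48, SE 0.16), RSPO2 (0.29, SE 0.12) and FZD4 (0.21, SE 0.062). With GS-1 scored from quantile-normalized values SFRP4, WNT2 and RSPO2 were not called (slopes 0.32, 0.38 and 0.22). The slope of SFRP4 was −0.10 within double-bar and 0.72 within single-bar libraries. FZD9 and WNT5A, called lower, lost the call with both edgeR and DESeq2.

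GS-1 and the osteoblast score were themselves related (r = −0.44 and rho = −0.36, permutation p = 1e-05 for each, adjusted p = 5.0e-05). The summed level of macrophage markers (CD163, MSR1, CSF1R, AIF1 and C1QA) had rho = 0.86 with the GS-1 score. These markers all passed the filter and summed to 50.7 to 3968 CPM with a median of 503 CPM. T-cell markers (CD3E, CD2 and CD5) went with the score as well (rho = 0.85). Of these 3 genes 2 passed the filter, and their sum had a median of 12.2 CPM. The part of either list in the slopes was not tested. With the other 3 scores in the fit, 2 members were called higher (SFRP4 0.43 and FZD4 0.15, with 18.1% of all genes called higher) and 2 lower (FZD3 −0.32 and LGR4 −0.30, with 18.7% of all genes called lower). SOST then had a slope of 0.34 (adjusted p = 0.19, limma-voom), opposite in sign to the slope without those scores. Without COTC022 dog 1709 the counts were 7 and 10.

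Between the 37 members 666 pairs were compared. Spearman rho was above 0 with an adjusted p under 0.05 (permutation, Benjamini-Hochberg over the pairs) in 189 pairs and below 0 in 70, and the median rho was 0.056. The share of such pairs among all genes was not computed, so these counts are not read as particular to the members. DKK3 and FZD1 were most alike, with r = 0.66 and rho = 0.68, followed by LGR6 and WIF1 with r = 0.67 and rho = 0.65. DKK3 with WNT9A and FZD1 with FZD2 each had rho = 0.57, WNT2B with WNT5B 0.55 and FZD1 with WNT2 0.54. Each of these 6 pairs had permutation p = 1e-05 and adjusted p = 8.9e-05 for rho, and rho was at least 0.44 within each trial and each kind of library name. FZD1 and FZD7, which are both Frizzled receptors, were the most opposed pair, with r = −0.39 and rho = −0.45. Its rho was −0.51 in single-bar and −0.17 in double-bar libraries (r = −0.52 and −0.03), and the difference between the kinds was not tested.

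**Figure D5:**
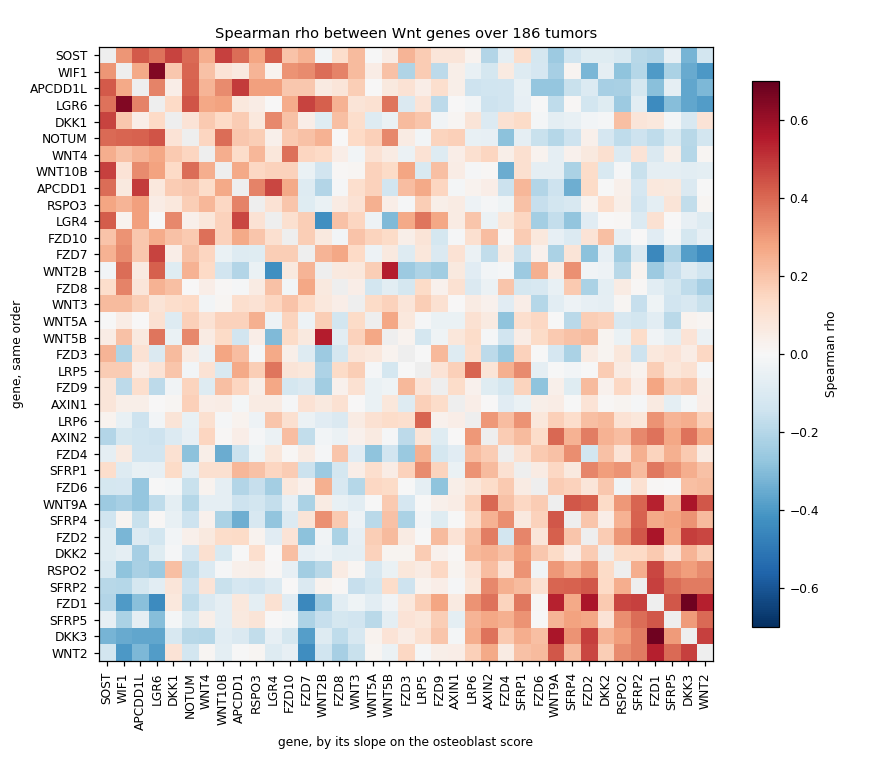
Heat map of Spearman rho over 186 tumors between the 37 Wnt genes that passed the filter, ordered on both axes by the slope on the osteoblast score, from −0.7 (blue) to 0.7 (red). Red fields lie at the upper left (SOST to LGR4) and at the lower right (WNT9A to WNT2), with blue fields between these sets, and the strongest red off these fields joins WNT2B and WNT5B. The order comes from the same tumors and places together genes that move alike with the score, so the corner fields are in part built in.

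Other genes of the pathway were counted from lists chosen by name, with limma-voom. Of all genes 20.2% were called higher and 21.6% lower on the osteoblast score, 9.24% and 7.20% on AXIN2, 22.6% and 26.8% on GS-1, 16.3% and 16.4% on cartilage, and 20.9% and 20.0% on stroma. Of the 9 feedback and target genes tested, 7 rose with the osteoblast score: NKD2 (0.99, SE 0.18), TNFRSF19 (0.62, SE 0.096), LEF1 (0.57, SE 0.082), TCF7 (0.44), RNF43 (0.43), CCND1 (0.17) and ZNRF3 (0.14). NKD1 was the 1 gene of this list that rose with AXIN2 (0.31, SE 0.11, adjusted p = 0.040, limma-voom). The summed level of the 10 genes listed had Spearman rho = −0.18 with AXIN2 and 0.48 with the osteoblast score. With GS-1 4 fell (TNFRSF19, NKD2, LEF1 and ZNRF3). With cartilage 4 rose (TNFRSF19, NKD1, RNF43 and ZNRF3), and with stroma TCF7 fell. AXIN2 itself, a target gene as well, had a slope of −0.089 on the osteoblast score (SE 0.054, adjusted p = 0.18, limma-voom), with r = −0.14 and rho = −0.25 (permutation p = 0.060 and 0.00071, adjusted p = 0.092 and 0.0018). Whether it was called lower depended on the fit: its slope was −0.18 without COTC022 dog 1709 (adjusted p = 0.0061, limma-voom), −0.16 with the other scores in the fit (adjusted p = 0.011, limma-voom), and −0.18 with edgeR and DESeq2 (adjusted p = 0.0039 and 0.0017). It was −0.02 and −0.15 within double-bar and single-bar libraries, where it was not called.

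The transduction list held 21 genes tested. With the osteoblast score 7 rose, among them PYGO2 (0.31), CTNNB1, which encodes beta-catenin (0.27, SE 0.039), and TLE2 (0.46), while DACT1 (−0.46) and TLE4 (−0.24) fell. With GS-1 12 fell, among them CTNNB1 (−0.17), BCL9 (−0.21) and PYGO1 (−0.29), and TLE3 and TLE4 rose. DACT1, an inhibitor that binds Dishevelled, rose with AXIN2 (0.61, SE 0.12), cartilage (0.66) and stroma (0.68), and GSK3A and PYGO2 fell with AXIN2. With cartilage 6 of the 21 rose and 1 fell, and with stroma 6 rose and 1 fell. Of 16 secretion and cell-surface genes 7 rose with AXIN2: ROR2 (0.79, SE 0.18), FRZB (0.60), TRABD2B (0.50), ROR1 (0.43), SULF1 (0.29), KREMEN1 (0.25) and WLS, which carries Wnt proteins to the cell surface (0.17). With the osteoblast score GPC4 (0.83), TRABD2A (0.65) and VANGL2 (0.48) rose and ROR2 (−0.54) fell, and with GS-1 4 fell. With cartilage 6 rose, led by FRZB, a Wnt-binding protein of cartilage (1.42, SE 0.11), and 2 fell, and with stroma 6 rose.

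Among genes outside the list, those whose level was most like that of AXIN2 over the 186 tumors were PPL (rho = 0.53), ABI3BP and OSMR (0.47 each), KCNE4 (0.47), NRCAM (0.46), AHNAK2 (0.46), COL3A1 (0.44) and SESTD1 (0.44), chosen for this likeness and positive within both trials and both kinds of library name. The members most like AXIN2 were WNT9A (rho = 0.40), FZD1 (0.38), DKK3 (0.38) and FZD2 (0.36), which ranked 31, 64, 65 and 95 among all genes. SOST was the member least like it (rho = −0.21).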

How the data were processed

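mRNA of 186 primary tumors was sequenced with a stranded paired-end kit. Per the labels and the methods of the study, the authors trimmed the reads with cutadapt, aligned them to GSD_1.0 with STAR 2.7.0f and quantified genes with RSEM 1.3.1. The deposited tables hold RSEM expected counts without normalization, in which a read that fits several genes is divided between them, so near-identical genes are less certain. Of all values 3.07% were not whole, and the values were rounded. Totals per library set the precision, and 12 columns that match no sample were not used.

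Trials were taken from the sample titles, with 1 tumor per dog, so p-values measure the spread between dogs. Genes were kept with filterByExpr (min.count of 10, large.n of 5 and min.prop of 0.5) of edgeR 4.0.16, normalized with TMM, and fitted with voom of limma 3.58.1 in R 4.3.3. Scores used log2 CPM with a prior count of 2, and score genes were left out of the genes tested on their score. CPM in the text are counts per library total. edgeR's quasi-likelihood test, DESeq2 1.42.0, other normalization and filters, and subsets of libraries served as alternatives. Correlations used two-sided permutation tests with 100000 resamples (Python 3.11.15, numpy 2.4.6, scipy 1.17.1, pandas 2.3.3), and figures matplotlib 3.10.9. Scripts were tested on simulated data.

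Every member may be named, and for each measure those with the 4 largest and 4 lowest called changes were described in depth. Members, marker lists and pathway lists were chosen with earlier results of these data known. All 53 members were matched to the RefSeq gene table of the same build, which gave the positions. CTNNBIP1, of the transduction list, has no single row and was left out. The MATN1 row did not pass the filter and is not in the cartilage score.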

Additional observations from a re-analysis of the deposited data

How the results depend on the processing

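No paired analysis was possible because dog numbers are not shared between the trials. RLE factors, no filter on low counts, the kind of library name as a covariate, leaving out the trial term and an osteoblast score without COL1A1, IBSP and BGLAP kept every count of called members within 1.5 times. Other alternatives moved some counts, and the cause was not tested except that subsets hold fewer libraries. For most alternatives the share of all genes called is not given. A moved count is therefore not read as a result about the members. With DESeq2, 2 members were called lower in COTC022, 1 lower with AXIN2, 6 lower with cartilage and 4 lower with stroma. With edgeR these counts were 1 for the trial, 5 for cartilage and 2 for stroma. Leaving out COTC021 dog 0630 or dog 1106 left 0 or 1 lower members for the trial in these tools. Without COTC022 dog 1709, 2 members were lower with cartilage and 2 with stroma, and without the 2 tumors farthest in score 3 were lower with stroma. GS-1 from quantile-normalized values had 2 members higher.

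With the other scores in the fit, 3 members were higher with AXIN2, 2 higher and 2 lower with GS-1, 3 lower with cartilage and 5 lower with stroma. Within COTC021, 5 were higher with AXIN2, 1 higher and 4 lower with GS-1, 7 higher with cartilage, and 9 higher and 1 lower with stroma. Within COTC022, 2 were lower with the osteoblast score, 2 higher and 7 lower with GS-1, 9 higher and 0 lower with cartilage, and 11 higher with stroma. Within double-bar libraries, 2 were higher with AXIN2, 11 higher and 2 lower with the osteoblast score, 0 higher and 4 lower with GS-1, 4 higher and 0 lower with cartilage, and 7 higher with stroma. Within single-bar libraries, 3 were higher and 7 lower with GS-1, 2 lower with cartilage, and 10 higher and 1 lower with stroma.

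Of 1277 alternative values for 103 single slopes and correlations, 1029 kept direction and call, 238 kept the direction and lost the call, and 10 changed sign. With edgeR and DESeq2 the slope of WNT5A on the osteoblast score was −0.025 and −0.030, and that of WNT2 on cartilage −0.21 for both. With the other scores in the fit the slopes on GS-1 were 0.14 for APCDD1L, 0.0031 for LGR6 and 0.34 for SOST, and that of SFRP4 on AXIN2 was −0.0023. Within double-bar libraries FZD10 had a slope of −0.028 on AXIN2 and SFRP4 one of −0.10 on GS-1.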
